A study of Homo sapiens with 12 samples.

Results

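The genes described here were the tRNA modification enzymes measured by poly(A) RNA-seq in RKO, A549 and H460 cells kept in normoxia or hypoxia. They were taken by gene symbol alone: every TRMT, NSUN, PUS, TRUB, ADAT, ALKBH, CTU, TYW and DTWD gene, the Elongator genes ELP2 to ELP6, and PUSL1, QTRT1, FTSJ1, TRIT1, METTL1 and WDR4. This gave 59 of the 25369 genes in the count table, by a rule that uses no measured value but was set with earlier results of these data known. The symbols bring in some enzymes whose known substrate is another nucleic acid, and these are named as such where they appear.

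Transfer RNAs are edited after transcription at many positions. Methyltransferases, pseudouridine synthases, deaminases and thiolation enzymes change single bases, and changes in the anticodon loop tune codon reading while changes in the body of the molecule stabilise its fold. Several of these enzymes work as a catalytic subunit with an obligate partner, and others occur as paralogues that serve cytosolic and mitochondrial tRNAs separately. The ALKBH proteins and TYW5 are iron- and 2-oxoglutarate-dependent oxygenases, which use molecular oxygen as a substrate.

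RKO is a colon carcinoma line, and A549 and H460 are lung carcinoma lines. Each line was held in normoxia or in 1% O2 for 24 h, with 2 independent biological replicates per condition and 12 libraries in all. RKO and A549 cells grew in DMEM and H460 cells in RPMI, both with fetal bovine serum, so line and medium cannot be told apart in comparisons of H460 with the other lines. Levels are given as CPM, counted reads scaled to a common library size after TMM normalisation, and changes as the log2 fold change of hypoxia over normoxia with its standard error (SE). A call of higher or lower needed an edgeR adjusted p below 0.1 together with more than a 1.5-fold change.

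The libraries held 27350424 to 41757584 counted reads. CA9, a carbonic anhydrase gene induced by hypoxia, had 0.972 to 5.89 CPM in the normoxia libraries and 56.2 to 235 CPM in the hypoxia libraries, so the oxygen labels held in every line. The spread between replicates, as a biological coefficient of variation, was smallest in H460 (7.91%), with 15.0% in RKO and 18.9% in A549. Of 3 epithelial markers, KRT8 and KRT18 were above 1 RPKM in all 3 lines, and EPCAM was in RKO and A549 but not in H460. Of the tissue markers, CDX2 was the only one of 4 colon genes above 1 RPKM in RKO, NAPSA the only one of 4 lung genes in A549 and NKX2-1 the only one in H460, where it passed in hypoxia alone (the 4 lung genes summed to 0.344 to 0.536 RPKM in normoxia and 1.46 to 1.56 RPKM in hypoxia), while the summed level of the 3 blood markers and that of the 4 stromal markers stayed at or below 0.0711 RPKM in every library.

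Most of the enzyme mRNAs that responded to hypoxia went down. In RKO, 30 of the 58 members tested were lower and 2 were higher (51.7% and 3.45%), where 15.1% and 18.8% of all 12817 genes tested were lower and higher. In H460, 27 of 58 were lower and 5 higher (46.6% and 8.62%), beside 27.3% lower and 24.6% higher among all 14080 genes. In A549, 2 of 59 were lower (3.39%), beside 0.456% of 14251 genes. No member was called higher in A549 by edgeR or DESeq2, where 2.22% of all genes were, and 1 member had a positive change at an unadjusted p under 0.05. The tested members had a median log2 fold change of -0.63 (RKO), -0.29 (A549) and -0.52 (H460), while the median over all genes was 0.01, -0.01 and -0.04. These are bulk cultures, so a lower share of cells making a transcript and less transcript per cell cannot be told apart. Scaling by library size alone shifted all genes by a median of 0.08 (RKO), -0.09 (A549) and -0.35 (H460), and changes are stated relative to the TMM reference; under that scaling 26 members were lower and 2 higher in RKO, beside 11.7% and 21.4% of all genes, and 38 lower and 3 higher in H460, where 40.9% of all genes were then lower and 14.7% higher.

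Counted by library rather than by test, both hypoxia libraries lay below both normoxia libraries for 44 RKO members (75.9%), 35 A549 members (59.3%) and 41 H460 members (70.7%). The share of all tested genes with that pattern was 35.1%, 24.7% and 44.6%. NSUN7, an NSUN family member of ill-defined substrate, passed the expression filter in A549 alone and had 0 reads in all 4 RKO libraries. Of all 59 members, 38 were lower in at least 1 line, 6 were higher in at least 1 line and 15 were called in none. Of the 15551 genes tested in at least 1 line, 30.1% were lower and 31.6% higher in at least 1, and 40.7% were called in none. In the joint fit of 12 libraries, the average effect over lines was lower for 24 members and higher for 1, ALKBH5 (0.90 ± 0.09, edgeR adjusted p = 3.73e-06), beside 11.5% lower and 14.8% higher among 15595 genes.

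**Figure D1:**
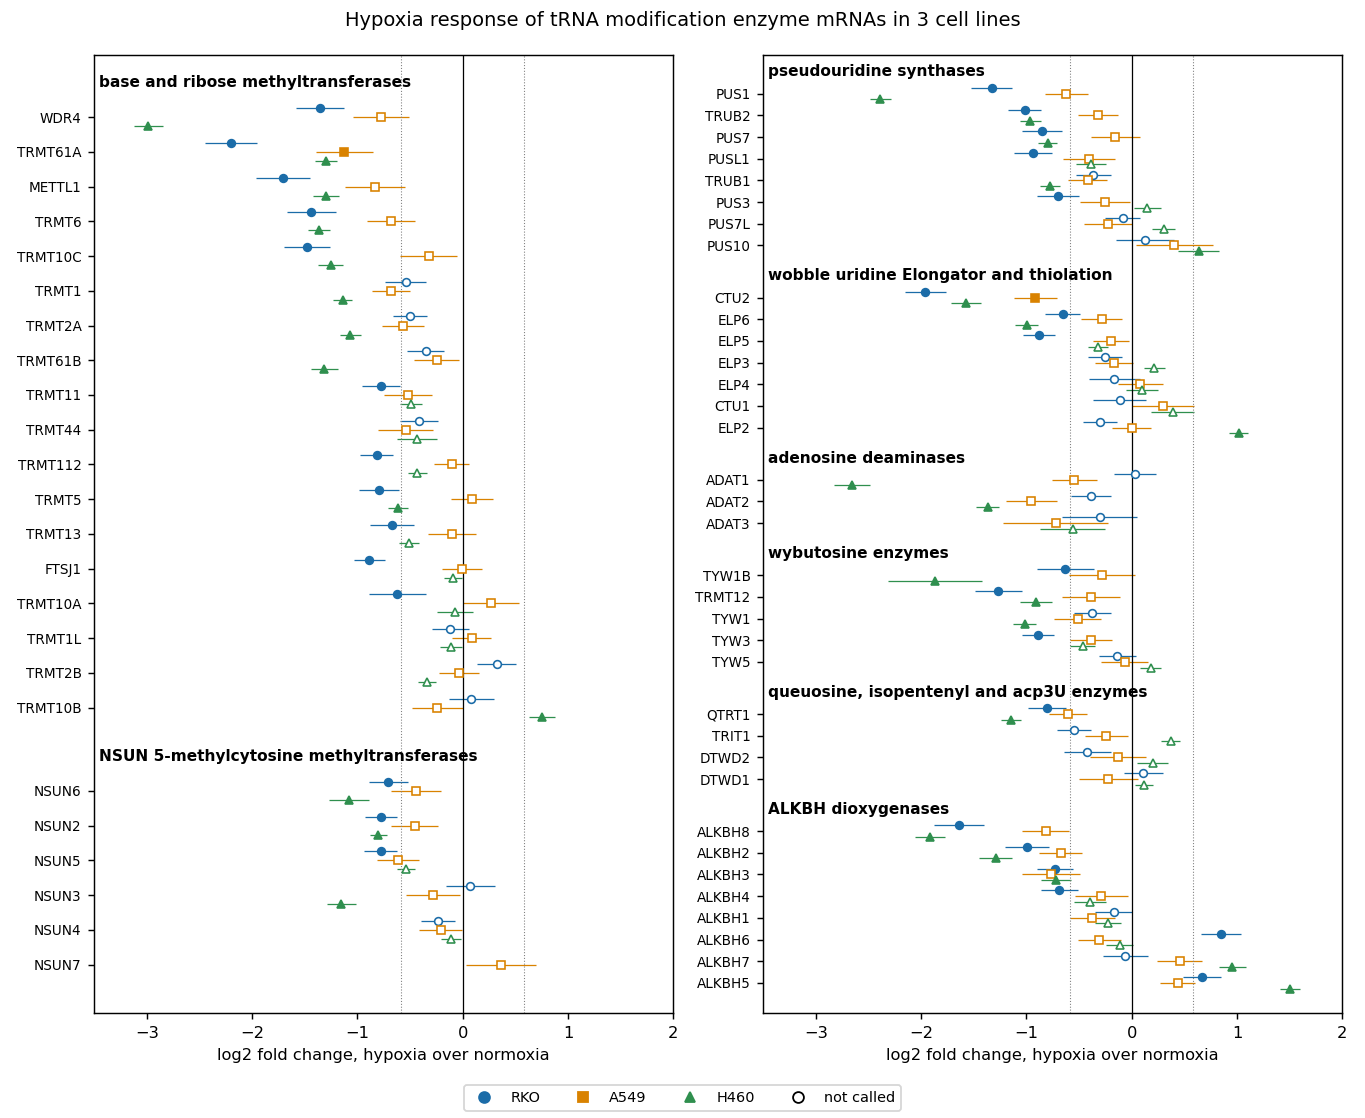
Log2 fold change of hypoxia over normoxia (x axis) for each enzyme mRNA (y axis), grouped by role, in RKO (circles), A549 (squares) and H460 (triangles). Bars are 1 SE, filled symbols are called genes and dotted lines mark a fold change of 1.5. Most filled symbols lie left of 0, down to -2.99 for WDR4 in H460, and the filled symbols on the right are ALKBH5, ALKBH6, ALKBH7, ELP2, TRMT10B and PUS10.

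TRMT61A and CTU2 were lower in all 3 lines. TRMT61A (chr14:103995508-104003410, plus strand, GRCh37) encodes the catalytic subunit of the enzyme that makes 1-methyladenosine in the T loop of cytosolic tRNAs. Its level was 35.8 and 44.4 CPM in the 2 normoxic RKO libraries and 6.62 and 10.9 CPM in the 2 hypoxic ones. In A549 it was 51.1 and 42.4 CPM in normoxia and 27.3 and 15.6 CPM in hypoxia, and in H460 33.5 and 34.5 CPM against 14 and 13.7 CPM. The conditions did not overlap in any line, and the log2 fold change was -2.20 ± 0.25 in RKO (edgeR adjusted p = 0.00019), -1.12 ± 0.27 in A549 (0.0953) and -1.30 ± 0.10 in H460 (4.42e-07). The drop was thus 4.6-fold in RKO and 2.18-fold and 2.45-fold in the lung lines. Without hypoxia replicate 2 the A549 value was -0.78 and not called (edgeR adjusted p = 0.291), and without normoxia replicate 1 it was -0.98 (0.14).

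TRMT6 (chr20:5918478-5931204, minus strand), the partner subunit that helps the same enzyme bind tRNA, had 68.9 and 66.2 CPM in normoxic RKO cells and 18.2 and 31.6 CPM in hypoxic ones. In H460 it had 35.6 and 39.5 CPM against 14.5 and 14.6 CPM. It was lower by -1.44 ± 0.23 in RKO (edgeR adjusted p = 0.00106) and by -1.37 ± 0.11 in H460 (3.46e-07), so both subunit mRNAs moved the same way in these lines. The A549 levels of 53.4 and 51.4 CPM against 39.2 and 26.0 CPM also did not overlap. The change of -0.68 ± 0.23 was not called (edgeR adjusted p = 0.2), but it was with the replicate number as a block (0.00289).

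CTU2 (chr16:88772890-88781786, plus strand) encodes a subunit of the cytosolic complex that thiolates the wobble uridine. It had 31.8 and 34.8 CPM in normoxia and 7.93 and 9.22 CPM in hypoxia in RKO, 30.8 and 29.1 against 17.2 and 14.6 CPM in A549, and 19.5 and 16.5 against 6.28 and 5.83 CPM in H460. Again no hypoxia library reached a normoxia library. The log2 fold change was -1.96 ± 0.19 in RKO (edgeR adjusted p = 0.000107), -0.91 ± 0.21 in A549 (0.0802) and -1.57 ± 0.14 in H460 (1.21e-06). The A549 value without hypoxia replicate 2 was -0.80 (edgeR adjusted p = 0.357) and without normoxia replicate 1 was -0.87 (0.131), neither of them called.

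CTU1 (chr19:51600862-51611647, minus strand), the catalytic partner of CTU2, did not share this course. Its level was 6.67 and 7.82 CPM in normoxia against 6.05 and 7.33 CPM in hypoxia in RKO, 5.57 and 4.0 against 6.33 and 5.41 CPM in A549, and 4.22 and 3.92 against 4.4 and 6.18 CPM in H460. The conditions overlapped in RKO and A549, and no line called a change (-0.12 ± 0.25, 0.29 ± 0.29 and 0.39 ± 0.20; edgeR adjusted p = 0.749, 0.66 and 0.1).

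**Figure D2:**
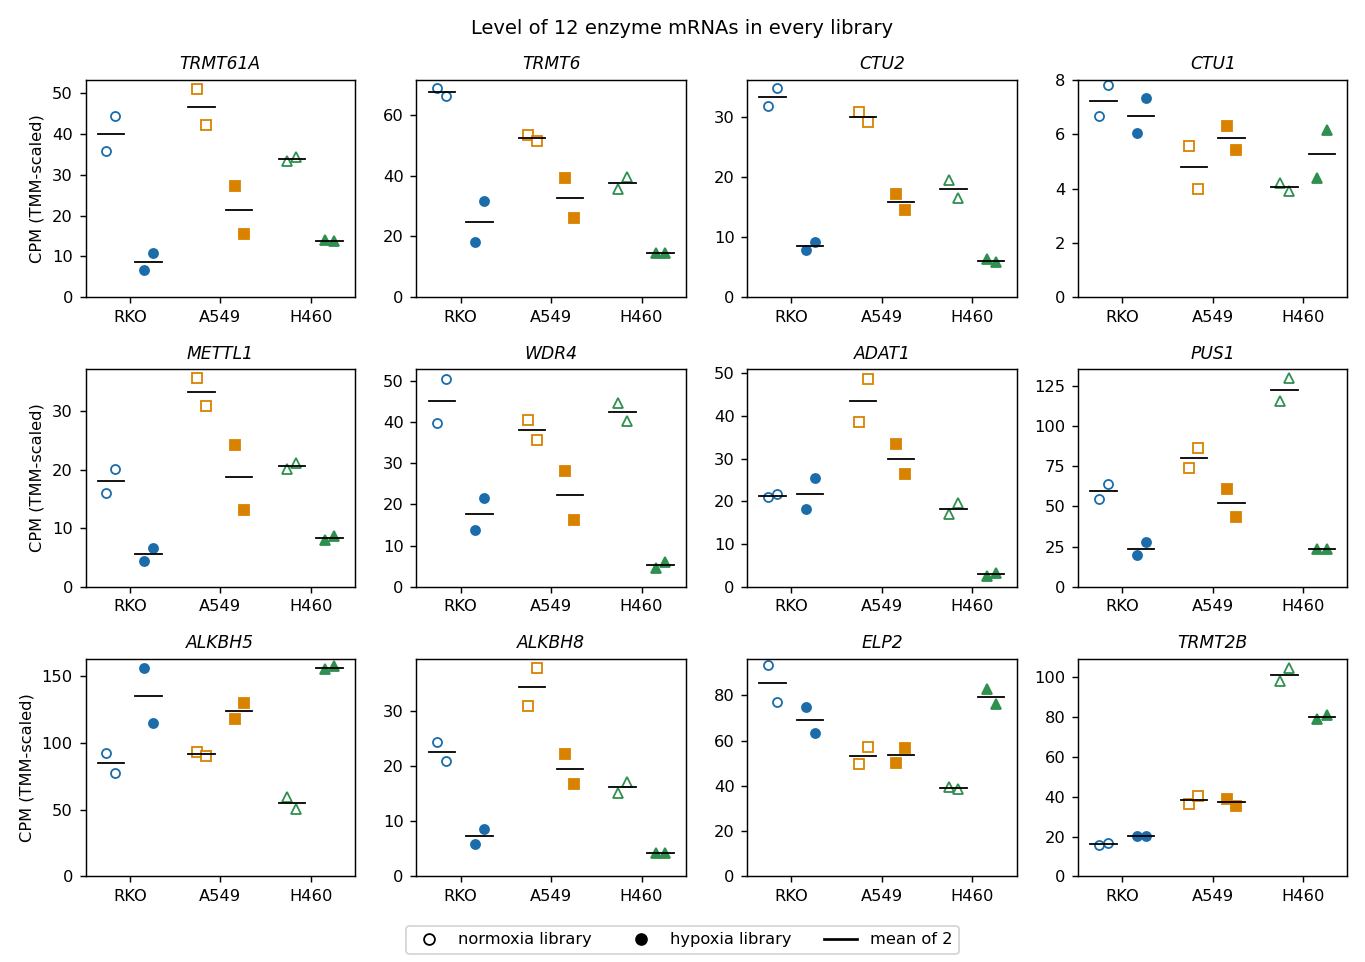
TMM-scaled CPM (y axis, from 0) of 12 enzyme mRNAs in each library, by line and condition (x axis). Open symbols are normoxia, filled symbols hypoxia and bars the mean of 2 replicates. TRMT61A and CTU2 drop in all 3 lines, CTU1 does not, and ADAT1 lies at 18.3 to 25.4 CPM in RKO while it drops to 2.45 and 3.31 CPM in H460.

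Promoter sequence was available for 49 members, as the window from 250 bases before to 50 bases after the gene start in RefSeq (GRCh38.p14, a later build than that of the counts). The E-box CACGTG, which basic helix-loop-helix factors can bind, was searched on both strands. It occurred in 5 of the 15 windows of members lower in both RKO and H460 (33.3%), all named below. Of the 31 windows of members lower in at least 1 line, 5 had it (16.1%). It was in 0 of the 18 windows of members lower in no line. Of the 5958 windows of genes tested in all 3 lines and lower in none, 9.4% had it. The share was 10.2% over the 49 members, 10.1% over the 8762 windows of genes tested in all 3 lines, 15.2% over the 784 windows of genes lower in RKO and H460, and 7.28% over all 27305 windows. The stretches below are all the CACGTG matches in the 49 windows. The set lower in both lines was picked by its own change, and a link between motif and change was not tested. Each stretch of 30 bases runs 5′ to 3′ on the strand of its gene, with the motif in capitals.
TRMT61A: gcgtcgcggaggCACGTGtggagccccggc
TRMT6: agcggcgtgcaaCACGTGggggcggtgccg
TRUB2: ccaaaacaaaatCACGTGacctattcacct
PUS7: gtcgctgcgccgCACGTGtgcgagcccggc
QTRT1 upstream: ggatcgcgtggtCACGTGacagcggccaac
QTRT1 downstream: tgtggtacggccCACGTGgttccgacagtc
The stretches lie at chr14:103529216-103529245 on the plus strand (TRMT61A), chr20:5950512-5950541 on the minus strand (TRMT6), chr9:128322196-128322225 on the minus strand (TRUB2), chr7:105522226-105522255 on the minus strand (PUS7), and chr19:10701382-10701411 and chr19:10701428-10701457 on the plus strand (QTRT1). Counted from 1 at the start, the motif begins at base 33 of TRMT61A, 5 of TRMT6, 6 of TRUB2 and 29 of PUS7, and at bases -45 and 2 of QTRT1. The letters ACGTG and GCGTG, the core of the hypoxia response element, were searched in the same way; ACGTG lies inside CACGTG, so these counts overlap. ACGTG was in 8 of the 15 windows of members lower in both lines (53.3%), in 30.6% of those of all members, in 30.9% of those of all genes lower in RKO and H460 and in 27.1% of those of all genes tested. GCGTG was in 11 of the 15 (73.3%), and its shares over the same sets were 67.3%, 61.7% and 51.7%. A match is only a run of letters, and no binding was measured here.

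The counts by role that follow stand beside the same shares of all genes, 15.1% lower and 18.8% higher in RKO and 27.3% lower and 24.6% higher in H460. Among the 18 base and ribose methyltransferases, 11 were lower in RKO, and 9 were lower and 1 higher in H460. METTL1 and WDR4 form the enzyme that makes 7-methylguanosine in the variable loop, with METTL1 as its catalytic subunit and WDR4 as its scaffold. WDR4 (chr21:44263189-44299699, minus strand) had the lowest log2 fold change of any member: 44.6 and 40.4 CPM in normoxic H460 cells became 4.63 and 6.02 CPM in hypoxia, a change of -2.99 ± 0.14 or 7.92-fold (edgeR adjusted p = 6.61e-09). In RKO it went from 39.9 and 50.5 CPM to 13.8 and 21.6 CPM (-1.35 ± 0.23, 0.00136). METTL1 (chr12:58162350-58165914, minus strand) had 16.0 and 20.1 CPM against 4.46 and 6.59 CPM in RKO (-1.71 ± 0.26, 0.000765) and 20.1 and 21.1 against 8.0 and 8.70 CPM in H460 (-1.30 ± 0.12, 1.85e-06). WDR4 thus had the larger drop in H460, and in RKO the changes of both genes had SE intervals that overlapped.

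TRMT10C, a mitochondrial methyltransferase that is also a subunit of mitochondrial RNase P, was lower in RKO (90.1 and 85.7 against 23.7 and 39.3 CPM, -1.48 ± 0.22, edgeR adjusted p = 0.000696) and in H460 (25.5 and 24.3 against 10.7 and 10.1 CPM, -1.26 ± 0.12, 1.42e-06). TRMT5, which methylates the guanosine beside the anticodon, was lower in the same lines by -0.79 ± 0.19 and -0.62 ± 0.09. Other methyltransferases were called lower in a single line, by the adjusted p and the fold threshold together. In RKO these were TRMT112, the activating partner of several methyltransferases (-0.82 ± 0.15), its partner TRMT11 (-0.78 ± 0.18), TRMT13 (-0.68 ± 0.21), the anticodon-loop ribose methyltransferase FTSJ1 (-0.89 ± 0.15) and TRMT10A (-0.62 ± 0.27). The TRMT10A call rested on 5.07 and 4.88 CPM in normoxia and was lost without any one of the 4 RKO libraries (edgeR adjusted p from 0.176 to 0.327). In H460 they were TRMT1, which makes dimethylguanosine (-1.14 ± 0.09), TRMT2A, which makes 5-methyluridine (-1.07 ± 0.10), and TRMT61B, the mitochondrial counterpart of TRMT61A (-1.31 ± 0.13). The joint fit called no difference between the RKO and H460 effects for TRMT112, TRMT11, TRMT13 and TRMT10A (edgeR adjusted p = 0.186, 0.508, 0.782 and 0.252). It called one for FTSJ1 (0.0123), TRMT1 (0.0534), TRMT2A (0.0382) and TRMT61B (0.0063). TRMT10B rose in H460, from 10.2 and 12 CPM to 18.8 CPM in both hypoxia libraries (0.75 ± 0.13, edgeR adjusted p = 0.000196).

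The NSUN family of 5-methylcytosine methyltransferases had 3 of 5 tested members lower in RKO and 3 of 5 in H460. NSUN2, the main cytosolic tRNA enzyme of the family, had 297 and 308 CPM in normoxic and 162 and 191 CPM in hypoxic RKO cells, and 192 and 198 against 110 and 114 CPM in H460. Its change was close in the 2 lines (-0.78 ± 0.16 and -0.80 ± 0.08, edgeR adjusted p = 0.00325 and 4.38e-06). NSUN6 was also lower in both (-0.71 ± 0.18 and -1.08 ± 0.19). NSUN3, which acts on mitochondrial methionine tRNA, was lower in H460 (14.6 and 14.9 against 6.09 and 7.14 CPM, -1.15 ± 0.14) and overlapped between conditions in RKO (8.41 and 7.93 against 7.87 and 9.30 CPM). NSUN5, whose known substrate is ribosomal RNA, was called lower in RKO alone without the replicate number as a block (-0.78 ± 0.16). For RKO minus H460 and RKO minus A549 the joint fit gave -0.20 and -0.12, neither of them called (edgeR adjusted p = 0.488 and 0.769). NSUN4, which methylates mitochondrial ribosomal RNA, was called in none of the lines, with values of -0.23, -0.21 and -0.11. NSUN5 has near-identical pseudogene copies, so its counts are uncertain.

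Of the 8 pseudouridine synthases, 5 were lower in RKO, and 4 were lower and 1 higher in H460. PUS1 (chr12:132413744-132428406, plus strand), which modifies many cytosolic and mitochondrial tRNAs, changed most. It had 115 and 130 CPM in normoxic H460 cells and 23.3 and 23.6 CPM in hypoxic ones, a 5.23-fold drop (-2.39 ± 0.10, edgeR adjusted p = 2.98e-09), and 54.6 and 64.1 against 19.6 and 27.6 CPM in RKO (-1.33 ± 0.20, 0.000706). TRUB2, a mitochondrial pseudouridine synthase, was lower by nearly the same amount in both (-1.01 ± 0.16 and -0.96 ± 0.10), as was PUS7 (-0.85 ± 0.19 and -0.80 ± 0.09). The RKO call of PUS7 was lost without hypoxia replicate 1, where its change was -0.55. TRUB1, the paralogue that modifies the T loop of cytosolic tRNAs, was lower in H460 (-0.78 ± 0.09), and PUS3 and PUSL1 were lower in RKO (-0.70 ± 0.20 and -0.93 ± 0.18). PUS10 rose in H460 from 4.74 and 4.32 CPM to 5.82 and 8.19 CPM (0.64 ± 0.19, edgeR adjusted p = 0.0103). It was not called without H460 normoxia replicate 2 (0.53) or hypoxia replicate 2 (0.39), nor with library-size scaling (0.29).

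Elongator starts the wobble uridine side chain that ALKBH8 and CTU1 and CTU2 complete. Its subunits did not move as a block. ELP6 and ELP5, of the accessory subcomplex, were lower in RKO (-0.66 ± 0.17 and -0.88 ± 0.15), and ELP6 was lower in H460 (27.9 and 30.6 against 14.2 and 15.1 CPM, -1.0 ± 0.11). ELP3, the catalytic subunit, had values of -0.25, -0.16 and 0.22 and was called in none of the lines. ELP2, a scaffold subunit, rose in H460 from 39.7 and 38.8 CPM to 82.9 and 76.0 CPM (1.02 ± 0.09, edgeR adjusted p = 1.1e-06), while it had 93.4 and 77.3 against 75 and 63.6 CPM in RKO (-0.30 ± 0.16, 0.173) and overlapping levels in A549.

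The adenosine deaminases convert adenosine to inosine in tRNA, ADAT2 with ADAT3 at the wobble position and ADAT1 next to the anticodon of alanine tRNA. ADAT1 (chr16:75632246-75657221, minus strand) was 6.3-fold lower in hypoxic H460 cells, where it went from 17.1 and 19.5 CPM to 2.45 and 3.31 CPM (-2.66 ± 0.17, edgeR adjusted p = 7.44e-08). In RKO its libraries overlapped, with 21.0 and 21.7 CPM in normoxia and 18.3 and 25.4 CPM in hypoxia (0.03 ± 0.20). ADAT2, the catalytic subunit of the wobble enzyme, was lower in H460 (41.8 and 47.5 against 16.4 and 18.2 CPM, -1.37 ± 0.11) and had 53.1 and 63.7 against 37.5 and 51.6 CPM in RKO (-0.39 ± 0.19, 0.128). ADAT3 was called in no line without the replicate block, at 0.804 to 7.45 CPM. It overlaps SCAMP4 on the same strand (chr19:1905370-1913446 against 1905372-1926012), so its counts depend on how shared reads were assigned.

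The ALKBH dioxygenases held members that went in either direction. Of the 8, 4 were lower and 2 higher in RKO, and 3 were lower and 2 higher in H460. ALKBH8, which methylates the wobble uridine side chain and hydroxylates it, had 24.3 and 20.9 CPM against 5.95 and 8.57 CPM in RKO (-1.64 ± 0.24, edgeR adjusted p = 0.000595) and 15.2 and 17.2 against 4.25 and 4.33 CPM in H460 (-1.92 ± 0.14, 2.8e-07). ALKBH2 and ALKBH3, known for repairing alkylated DNA, were lower in both lines too (-1.0 ± 0.21 and -0.73 ± 0.17 in RKO, -1.29 ± 0.15 and -0.72 ± 0.15 in H460). ALKBH5 (chr17:18086866-18113267, plus strand), which demethylates 6-methyladenosine in mRNA, rose from 92.5 and 77.3 CPM to 155 and 114 CPM in RKO (0.67 ± 0.18, 0.0142) and from 59.4 and 50.6 CPM to 155 and 157 CPM in H460 (1.51 ± 0.10, 8.06e-08). Its RKO change was 0.54 without normoxia replicate 2 and 0.47 without hypoxia replicate 1, short of the fold threshold in each case, and in A549 it was 0.44 ± 0.17 (92.7 and 90.1 against 118 and 130 CPM, 0.239). ALKBH6 rose in RKO (14 and 15.9 against 24.5 and 29.4 CPM, 0.85 ± 0.19, 0.00604), and ALKBH7, a mitochondrial protein, rose in H460 (8.53 and 8.32 against 15.9 and 16.8 CPM, 0.96 ± 0.13, 2.66e-05).

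Wybutosine, a bulky base beside the anticodon of phenylalanine tRNA, is built by the TYW enzymes and TRMT12. TRMT12 was lower in RKO (-1.27 ± 0.22, edgeR adjusted p = 0.00157) and H460 (-0.91 ± 0.15, 0.000158), TYW3 in RKO (98.5 and 90.2 against 50.2 and 51.5 CPM, -0.89 ± 0.15) and TYW1 in H460 (-1.02 ± 0.11). TYW5, the oxygenase of the pathway, was not called in any line. TYW1B was lower in RKO (-0.63 ± 0.27) and H460 (-1.87 ± 0.45), but from 1.34 and 1.67 CPM in H460, and TYW1 and TYW1B are near-identical copies whose reads may be split between them. The RKO call of TYW1B was lost without hypoxia replicate 1 (-0.33) and without either normoxia replicate. QTRT1, the catalytic subunit that inserts queuine at the wobble position, was lower in RKO (42.3 and 55.1 against 27.9 and 27.8 CPM, -0.81 ± 0.18, 0.0056) and H460 (50.8 and 53.2 against 24.5 and 22.5 CPM, -1.15 ± 0.10, 6.68e-07). TRIT1, which adds the isopentenyl group, had values of -0.55 ± 0.16 in RKO and 0.37 ± 0.09 in H460, both with an edgeR adjusted p under the threshold (0.0195 and 0.00342) but under the fold of 1.5. DTWD1 and DTWD2, which make the aminocarboxypropyl uridine, were not called in any line.

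A549 gave few calls and depended on the fit. Under a fit with the replicate number as a block, since replicates with the same number deviated together in these data, 14 members were lower in A549, beside 5.07% of all genes. The members added by the block were ADAT2, ADAT3, ALKBH2, ALKBH3, ALKBH8, METTL1, NSUN5, PUS1, QTRT1, TRMT1, TRMT6 and WDR4. ADAT3 had 7.45 and 2.9 CPM in normoxia against 4.35 and 1.9 CPM in hypoxia, which overlapped, and its change of -0.72 became 0.11 without normoxia replicate 1. Among them, WDR4 went from 40.6 and 35.7 CPM to 28.2 and 16.3 CPM (-0.78 ± 0.27, edgeR adjusted p = 0.211, with the block 0.00122) and METTL1 from 35.5 and 30.9 to 24.2 and 13.1 CPM (-0.83 ± 0.29, 0.213, with the block 0.000924). ALKBH8 went from 30.8 and 37.8 to 22.2 and 16.7 CPM (-0.82 ± 0.23, 0.136, with the block 0.00186), ADAT2 from 19.1 and 16.9 to 10.7 and 7.95 CPM (-0.95 ± 0.24, 0.112, with the block 0.000975), and PUS1 from 73.9 and 86.0 to 60.5 and 43.5 CPM (-0.62 ± 0.21, 0.201, with the block 0.00345). Hypoxia replicate 2 was the lower of the 2 in 41 of 59 members. The median log2 ratio to the normoxia mean was -0.25 in replicate 1 and -0.44 in replicate 2. That count and these medians have no value over all genes beside them, so they do not set the members apart. Fewer members were called lower in A549 without hypoxia replicate 2 than without hypoxia replicate 1, and the same held for all genes. With the block, 10 members were lower in all 3 lines, a count given without its share over all genes.

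The responses of RKO and H460 overlapped in part. Of the 30 members lower in RKO, 19 were lower in H460, which is 63.3% of the RKO members and 70.4% of the 27 in H460, where the same shares over all genes were 57.8% and 29.1%, and ALKBH5 was higher in both. Across the 58 members the log2 fold changes had Pearson correlations of 0.578 between RKO and H460, 0.597 between RKO and A549 and 0.720 between A549 and H460. These are descriptions across genes, which are not independent replicates, and each line had its own normoxia libraries. The log2 fold change was negative in all 3 lines for 37 of the 58. This count and the correlations have no value over all genes beside them, so they do not set the members apart.

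**Figure D3:**
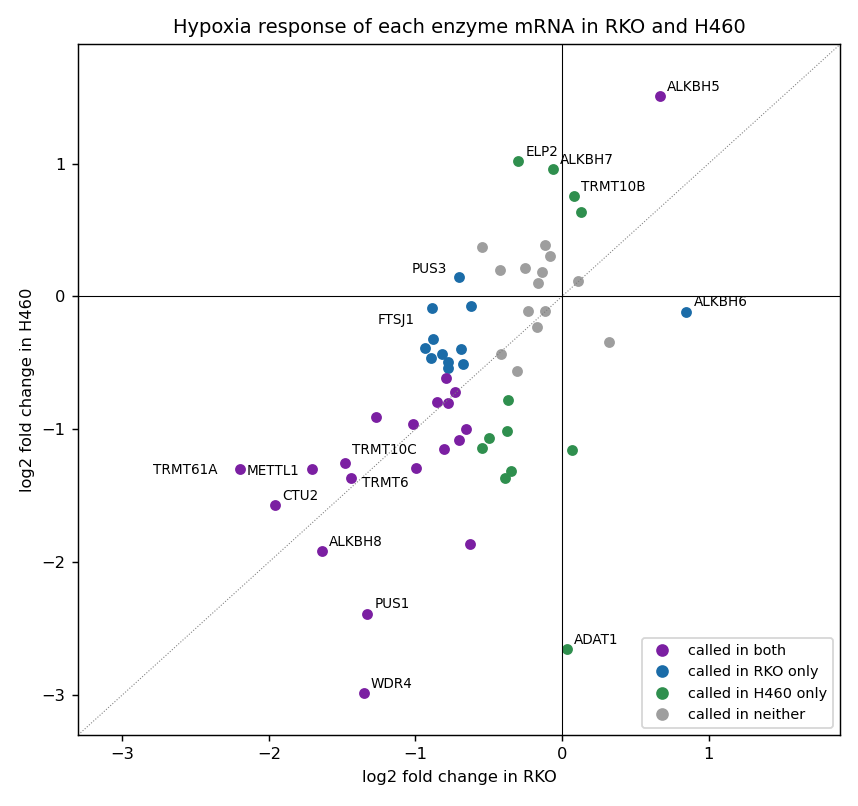
Log2 fold change in RKO (x axis) against H460 (y axis) for the 58 members tested in both, coloured by where the member was called, with the diagonal dotted. The 19 members lower in both lie at lower left, ALKBH5 alone is higher in both, and ADAT1 lies near 0 on the RKO axis and at -2.66 on the H460 axis.

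The difference between lines was tested in the joint fit, by the interaction of line and oxygen at an adjusted p under 0.1. It was found for 28 of the 59 members (47.5%), where 48.8% of all genes had it. Between RKO and H460 the effect differed for 20 members (33.9%, beside 37.6% of all genes), between A549 and H460 for 19 (32.2%, beside 36.0%) and between RKO and A549 for 9 (15.3%, beside 14.6%), where each pair of comparisons shares the libraries of a line. The shares for the members were thus near those of all genes. With the replicate block the count between RKO and A549 was 17, beside 26.9% of all genes. Without the block, this count depended on single libraries. It was smaller without RKO normoxia replicate 1 or hypoxia replicate 1 than without RKO or A549 hypoxia replicate 2. The count over all genes had the same order. The count between A549 and H460 fell without H460 normoxia replicate 2 or either H460 hypoxia library, and so did that over all genes.

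ADAT1 differed most between lines: its effect in H460 was lower by 2.74 ± 0.30 on the log2 scale than in RKO (edgeR adjusted p = 4.83e-05) and by 2.11 ± 0.30 than in A549 (0.00033). The effect on WDR4 was lower in H460 than in A549 by 2.21 ± 0.36 (0.000774) and than in RKO by 1.68 ± 0.36 (0.00357), and that on PUS1 by 1.76 ± 0.26 (0.000424) and 1.10 ± 0.26 (0.00667). ELP2 had the reverse order, with a difference of -1.27 ± 0.22 for RKO minus H460 (0.000751) and -1.02 ± 0.22 for A549 minus H460 (0.00374). ALKBH6 stood out on the RKO side, its effect exceeding that in A549 by 1.20 ± 0.24 (0.0092) and that in H460 by 1.01 ± 0.24 (0.00624). For RKO minus A549, the difference was -1.0 ± 0.24 for CTU2 (0.0222), -0.83 ± 0.20 for FTSJ1 (0.0226) and -1.03 ± 0.35 for TRMT61A (0.0853), and TRMT61A also had -0.86 ± 0.36 for RKO minus H460 (0.0829).

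Ratios within a library do not depend on the scaling between libraries, and 11 pairs of partners or paralogues were compared in this way. The test was an exact permutation of the oxygen labels within lines, two-sided, with Benjamini-Hochberg adjustment over the 11 pairs. The smallest p it allows is 0.00926, at which a pair passes 0.1 after adjustment only when another pair has a low p too. The pairs were chosen with earlier results of these data known. The CTU1 to CTU2 ratio rose by 1.66 on the log2 scale on average over the lines (exact permutation p = 0.00926, adjusted 0.0509), with values of 1.84, 1.23 and 1.92 in RKO, A549 and H460. In RKO the log2 ratio was -2.25 and -2.15 in normoxia and -0.39 and -0.33 in hypoxia. The 2 mRNAs of this complex thus stood closer to each other in number of reads in hypoxia in every line.

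Ratios between paralogues also changed, in some pairs towards more equal counts. TRMT2A, of the cytosolic 5-methyluridine, lost ground to the mitochondrial TRMT2B, with changes of -0.82, -0.53 and -0.73 in RKO, A549 and H460 (exact permutation test, mean change -0.69, p = 0.00926, adjusted 0.0509). TRMT1 did so against TRMT1L (mean change -0.74, exact permutation p = 0.0185, adjusted 0.0509), and the mitochondrial TRMT10C against the cytosolic TRMT10A (the TRMT10A to TRMT10C ratio rose by 0.91, p = 0.0185, adjusted 0.0509). All 3 lines had the same direction in each of these pairs. The TRMT61A to TRMT61B ratio changed by -1.88 in RKO and -0.92 in A549 but by 0.02 in H460 (mean change -0.93, exact permutation p = 0.037, adjusted 0.0815). TRMT6 to TRMT61A (mean change 0.38, exact permutation p = 0.0463, adjusted 0.0849) and PUS7 to PUS7L (mean change -0.60, p = 0.0556, adjusted 0.0873) likewise had a line near 0 or of the other sign.

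Those 3 last pairs lost the call when single libraries were left out. The adjusted p of TRMT61A to TRMT61B was 0.131 without A549 normoxia replicate 1 and 0.102 without normoxia replicate 2. That of TRMT6 to TRMT61A was 0.102 to 0.131 without any A549 library or either RKO hypoxia library. That of PUS7 to PUS7L was 0.102 to 0.153 without RKO normoxia replicate 1 or 2, RKO hypoxia replicate 1, A549 normoxia replicate 1, or either A549 hypoxia library. The METTL1 to WDR4 ratio changed by 1.70 in H460 and by -0.34 and -0.07 in RKO and A549, and its mean of 0.43 did not pass (exact permutation p = 0.333). ADAT2 to ADAT3, TRMT11 to TRMT112 and TRUB1 to TRUB2 had mean changes of -0.36, -0.14 and 0.25 and did not pass either (adjusted 0.226, 0.295 and 0.127).

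**Figure D4:**
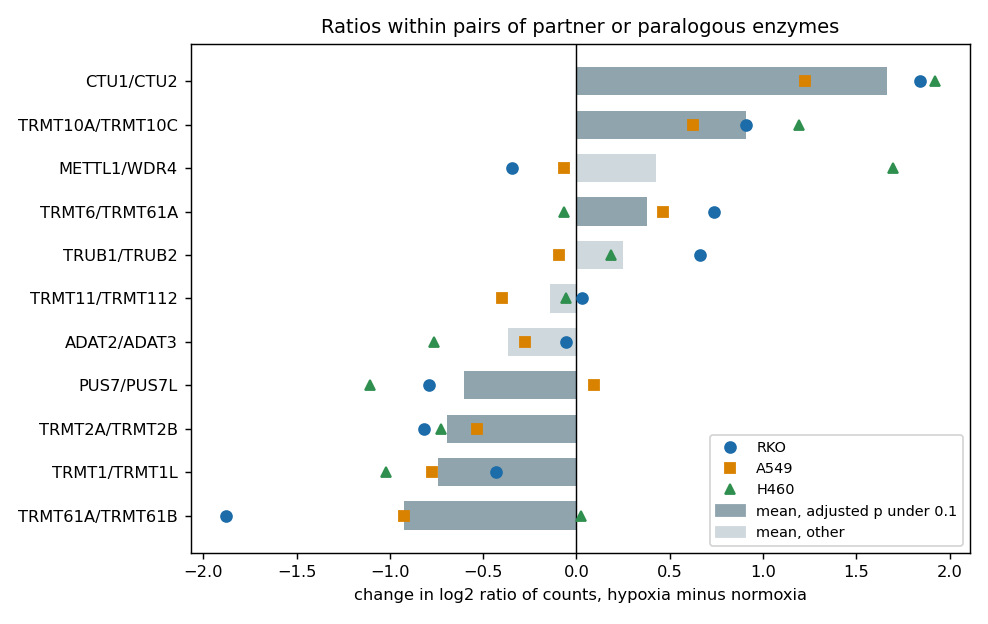
Change in the log2 ratio of counts, hypoxia minus normoxia (x axis), for 11 pairs of partner or paralogous enzymes (y axis). Bars start at 0 and give the mean over 3 lines, dark where the adjusted p was under 0.1, and symbols give each line. CTU1 to CTU2 lies furthest to the right at 1.66, and METTL1 to WDR4 is set apart by H460 at 1.70.

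The order of the enzyme mRNAs by level was read from the normoxia libraries. Levels between genes are compared per length, as deposited RPKM (reads scaled by exon length and library size), mean ± SD of 2 libraries. By the mean of the lines TRMT112 was at the top, with 113 ± 11.7 RPKM in RKO, 102 ± 6.40 in A549 and 54.4 ± 1.47 in H460. NSUN2 (87.2 ± 4.33, 34.6 ± 5.92 and 65.4 ± 2.23) and TRUB2 (82.1 ± 2.55, 40.1 ± 1.94 and 26.5 ± 0.295) came next, at 62.4 and 49.5 RPKM, with FTSJ1 at 47.8. NSUN2 and TRUB2 were neighbours in RKO (84.2 and 90.3 against 83.9 and 80.3 RPKM) and overlapped in A549. In H460 PUS1 (66.5 RPKM) and NSUN2 stood above TRMT112. At the bottom were TYW1B (2.50, 1.37 and 0.540), PUS10 (1.10, 1.05 and 1.34) and NSUN7, where PUS10 and TYW1B overlapped in A549. CTU1, at 2.18 to 3.35 RPKM, lay well below CTU2 at 11.8 to 18.8 RPKM. In hypoxia ALKBH5 moved from rank 13 to rank 2 of 59 by mean RPKM, WDR4 from rank 21 to rank 39 and TRMT61A from rank 31 to rank 47.

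**Figure D5:**
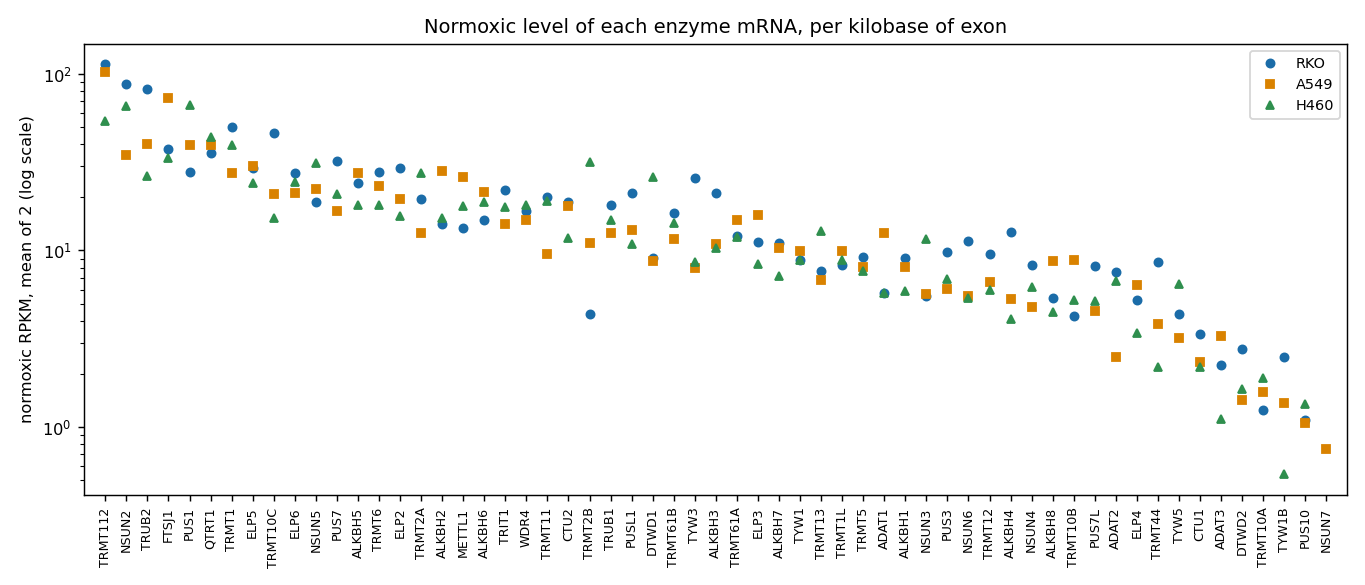
Normoxic RPKM (y axis, log scale, mean of 2 libraries) of each enzyme mRNA (x axis, ordered by the mean over lines) in RKO, A549 and H460. TRMT112 leads by the mean over lines, and PUS1 and NSUN2 lie above it in H460, NSUN7 has a point only for A549 because it was at 0 in the normoxic libraries of the other lines, and TRMT2B is spread most widely among the upper genes, from 4.39 RPKM in RKO to 31.9 RPKM in H460.

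Between lines, normoxic levels were compared in CPM by the joint fit, with the same thresholds as for hypoxia. RKO had 20 members higher and 8 lower than A549 (beside 26.0% and 34.1% of all genes), and 22 higher and 8 lower than H460 (beside 27.2% and 34.7%). A549 had 13 higher and 10 lower than H460 (beside 26.9% and 25.2%). TRMT2B had 15.9 and 16.5 CPM in the RKO libraries, 36.2 and 40.3 CPM in those of A549 and 97.8 and 105 CPM in those of H460, and each step was called (-1.34 ± 0.13 for RKO minus A549 and -1.55 ± 0.13 for A549 minus H460, edgeR adjusted p = 5.79e-07 and 1.6e-07). TYW3 and ADAT2 were higher in RKO than in A549, by 1.69 ± 0.15 (1.25e-07) and 1.60 ± 0.19 (3.5e-06), and TRMT44 and TYW1B were higher in RKO than in H460, by 1.94 ± 0.21 (1.08e-06) and 2.17 ± 0.36 (8.4e-05). DTWD1 was lower in RKO than in H460 (-1.55 ± 0.22, 2.09e-05) and lower in A549 than in H460 (-1.61 ± 0.22, 2.21e-05). ADAT3 was higher in A549 than in H460 by 1.54 ± 0.48 (0.0132), with 7.45 and 2.9 against 1.73 and 1.49 CPM. NSUN7 had 2.27 and 3.08 CPM in normoxic A549 cells and 0 reads in the normoxic libraries of the other lines; against a floor of 3 reads a library it was at least 26.0-fold higher than in RKO and at least 23.2-fold higher than in H460, which covers counting error only.

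The wider tRNA modification pathway was read from 44 further genes that the symbols above do not take, such as dihydrouridine synthases, the KEOPS complex, the mitochondrial wobble uridine enzymes and the other thiolation factors. In RKO 23 of the 41 tested were lower, and in H460 22 of 43 were lower and 2 higher, beside 15.1% of all genes lower in RKO and 27.3% lower and 24.6% higher in H460. In A549 1 of 42 was lower, beside 0.456% of all genes, DUS3L (-0.90 ± 0.21, edgeR adjusted p = 0.0824), and with the replicate block 6 were. Partners of members were among the lower genes: HSD17B10, of the complex with TRMT10C, by -1.12 ± 0.15 in RKO and -1.08 ± 0.09 in H460, and QTRTD1, the partner of QTRT1, by -1.24 ± 0.23 and -1.38 ± 0.11. DKC1, the pseudouridine synthase of small nucleolar RNPs, and NOP2, a relative of the NSUN enzymes, had changes of -1.37 ± 0.15 and -1.35 ± 0.23 in RKO and -0.90 ± 0.08 and -1.79 ± 0.09 in H460. The 2 higher genes in H460 were THG1L, which adds the guanosine of histidine tRNA, and TRMU, the mitochondrial thiolation enzyme (0.80 ± 0.10 and 0.73 ± 0.09). IKBKAP, the largest Elongator subunit, was called in no line (-0.31 ± 0.15, -0.15 ± 0.16 and 0.09 ± 0.08).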

How the data were processed

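Poly(A) RNA from 12 cultures, 2 independent replicates of each line and condition, was sequenced as strand-specific TruSeq libraries. By the methods of the study and the submitters' processing notes, reads were trimmed at low-quality ends, aligned with TopHat2 2.0.13 to GRCh37/hg19, cleared of alignments with mapping quality under 10, marked for duplicates with Picard 1.129 and counted per gene on the reverse strand with HTSeq 0.6.1. The authors deposited raw read counts and RPKM per gene and library, and 0 sample columns were left unused. Reads of near-identical copies may have been lost or split at the mapping quality step. The libraries held 27350424 to 41757584 counts; the median SE of a member's log2 fold change was 0.185 (RKO), 0.223 (A549) and 0.110 (H460).

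The deposited counts were fitted per line by the quasi-likelihood F test of edgeR 4.0.16 under R 4.3.3, with TMM factors (genes over 0.5 CPM in at least 2 libraries), with Benjamini-Hochberg adjustment over all genes tested; SE was derived from the fold change and F. A joint fit of 12 libraries gave interactions, averages and normoxic contrasts. The fits were tested on simulated data. Log2 ratios used counts plus 1. Alternatives were DESeq2 1.42.0, limma 3.58.1 on log2 RPKM, RLE factors, library size, other filters and thresholds, a joint fit, a replicate block and leaving out each library. The labels number the replicates without saying what the numbers share. Same-numbered libraries deviated together in every line (correlation 0.339 in RKO, 0.343 in A549 and 0.115 in H460), which is a hint from the data and not the design. The A549 members added by the block are named, with blocked values for some of them. For the interactions the block is given only as a count between RKO and A549.

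Members and lists were chosen with earlier results of these data known. Named genes are those called the same way in all lines or in opposite directions in 2 lines (none were), the 3 highest and 3 lowest changes per line, the 3 strongest interactions per pair of lines, the genes of the 11 ratio pairs, the 3 highest and 3 lowest normoxic levels and the 2 largest called normoxic differences in each direction per pair of lines, with members tested in no line (none); CA9 checks the labels and others are named as examples of a role. Promoter windows came from RefSeq (GRCh38.p14) for 49 members; 10 had no entry, namely TRIT1, PUS7L, TYW3, TRMT2A, PUSL1, ELP3, PUS1, METTL1, NSUN2 and TRMT12.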

Additional observations from a re-analysis of the deposited data

Results flagged for a closer look

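The hypoxia effect differed between the 3 lines for 28 of the 59 enzyme genes by the edgeR interaction test, and between pairs of lines for 9 (RKO against A549), 20 (RKO against H460) and 19 (the lung lines). These are 47.5%, 15.3%, 33.9% and 32.2% of the members, beside 48.8%, 14.6%, 37.6% and 36.0% of all genes. Each difference below is on the log2 scale, the effect in the first line minus that in the second, and passed an adjusted p of 0.1 over all genes.

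For RKO minus H460 the difference was 2.74 for ADAT1, 1.02 for ADAT2, 0.71 for TRMT2B, 0.64 for TRMT1 and 0.61 for TRMT2A, and it was -1.27 for ELP2 and -0.97 for ALKBH7. For A549 minus H460 it was 2.21 for WDR4, 1.76 for PUS1, 1.59 for TYW1B and 1.07 for TRMT61B, and -1.07 for ALKBH5. For RKO minus A549 it was 1.20 for ALKBH6, and it was -1.11 for TRMT10C, -1.03 for TRMT61A, -1.0 for CTU2, -0.83 for FTSJ1, -0.66 for TRMT112 and -0.65 for TRUB2. H460 grew in another medium than the other lines, so a difference between H460 and another line cannot be assigned to the line or to the medium.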

How the results depend on the processing

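With 2 replicates per group, the calls in A549 carried the least weight. The number of members lower in A549 was 2, but 9 with DESeq2, 14 with the replicate block and 13 in the joint fit of 12 libraries. Over all genes it was 65 of 14251, but 263 of 14251 with DESeq2, 723 of 14251 with the block and 440 of 15595 in the joint fit. The members lower were 5 without a filter on low counts, beside 213 of 19571 genes. They were 1 with library size only, with a filter of 1 CPM, with a fold change over 2 or with limma on log2(RPKM + 0.1). They were 0 at an adjusted p under 0.05 or with limma on log2(RPKM + 1). Leaving out single libraries also changed the number. Members lower in all 3 lines were 2, and 7, 10 and 10 with DESeq2, the block and the joint fit. They were 1 with library size only, a filter of 1 CPM, a fold change over 2 or limma with 0.1. With the stricter p or limma with 1 they were 0. Leaving out single libraries changed this number too. The counts over all 3 lines have no share over all genes beside them, so they do not set the members apart. Other pathway genes lower in A549 were 1, and 3 with DESeq2, 6 with the block, 4 in the joint fit, 2 without a filter, 0 with limma, a fold change over 2 or the stricter p, and 0 to 6 without single libraries (0 without normoxia replicate 1 or hypoxia replicate 2, 3 without normoxia replicate 2 and 6 without hypoxia replicate 1). The interaction of RKO and A549 held 9 members, and 17 with the replicate block, 15 without a filter, 5 with library size only and 3 to 15 without single libraries, and that of A549 and H460 held 10 to 23. The replicate block changed no other count by over 1.5 times.

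A fold change over 2 left 10 lower and 0 higher members in RKO, beside 621 and 1359 of 12817 genes. In H460 it left 2 members higher, beside 1904 of 14080 genes. It left 9 and 13 lower and 0 higher pathway genes in RKO and H460. With no minimum fold change 8 members and 4 pathway genes were higher in H460, beside 5345 of 14080 genes. Higher members in H460 were 3 with library size only or limma with 0.1 and 2 with limma with 1, and higher pathway genes were 0 in each. Without single libraries RKO had 1 to 2 higher members (1 without normoxia replicate 2 or hypoxia replicate 1), and the average over lines 1 to 2 (2 without A549 normoxia replicate 2). The median change of the members was -0.87, -0.86 and -0.77 in H460 under library size, limma with 0.1 and limma with 1. In RKO it was -0.54, -0.52, -0.44 and, in the joint fit, -0.56. The median over all genes under the same settings was -0.39, -0.37 and -0.26 in H460. In RKO that median was 0.09, 0.09, 0.07 and, in the joint fit, 0.05. Without single libraries the median of the members was -0.67 to -0.47 in RKO, -0.45 to -0.25 in A549 and -0.61 to -0.50 in H460. The mean ratio changes ranged from -0.73 to -0.48 for PUS7 to PUS7L, 0.32 to 0.44 for TRMT6 to TRMT61A and -1.01 to -0.84 for TRMT61A to TRMT61B. In each case the cause was not tested.

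The sign changed in 19 gene values, none of them called in the fits without the replicate block; ADAT3 in A549 was called lower with it. In H460, DTWD1 was -0.238, -0.235 and -0.227 and PUS7L -0.0469, -0.0414 and -0.0357 under library size, limma with 0.1 and limma with 1. In RKO, ALKBH7 was 0.0188, 0.0205 and 0.0188 under these. In A549, TRMT1L was -0.0061, -0.00046 and -0.000852 under them and ELP2 -0.0925, -0.0894 and -0.0854. ELP2 was also -0.00126 with RLE factors, -0.00709 without a filter and -0.00128 with DESeq2, and FTSJ1 was 0.00978 in the joint fit. Without single libraries the ranges were, in RKO, -0.204 to 0.287 (ADAT1), -0.788 to 0.108 (ADAT3), -0.206 to 0.0927 (ALKBH7), -0.24 to 0.0541 (CTU1), -0.0485 to 0.288 (DTWD1), -0.029 to 0.318 (PUS10), -0.131 to 0.014 (PUS7L) and -0.282 to 0.0628 (TRMT1L). In A549 they were -1.45 to 0.111 (ADAT3), -0.588 to 0.271 (DTWD1), -0.0967 to 0.103 (ELP2), -0.162 to 0.168 (FTSJ1), -0.407 to 0.151 (PUS7), -0.0238 to 0.204 (TRMT1L) and -0.115 to 0.0391 (TRMT2B), and in H460 -0.269 to 0.0733 (TRMT10A) and -0.214 to 0.0258 (TRMT1L).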
